A study of Mus musculus with 6 samples.

Results

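The genes described here encode 7 proteins of the cell's surface membrane that move sodium, calcium, chloride or bicarbonate, or that regulate such transport. They were chosen by name, with earlier results of these data known. The genes are Atp1b1, Fxyd1, Slc8a1, Atp2b1, Atp2b4, Atp2b2 and Slc4a3, 7 of the 35976 genes in the authors' read count matrix. All 7 passed the filter on low counts. The RNA came from mouse hearts of genotype WT in 6 libraries. In the 3 edited libraries the hearts had received AAV-MYL2-TadA8e-Sauri-U6-Camk2d sgRNA7, an adeno-associated virus in which the MYL2 promoter, active in ventricular muscle, drives an adenine base editor made of the deaminase TadA8e and a Cas9 named Sauri. A U6 promoter drives the guide against Camk2d, and the edit is aimed at the 5' splice site of intron 7. The 3 control libraries came from hearts whose treatment is labelled none, so virus, editor and edit all differ between the groups and cannot be told apart. Age, sex, dose, interval and the part of the heart are not given in the labels, and nothing in them says that replicates are separate animals. The p-values therefore measure the spread between these samples, which may be technical.

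The sodium-potassium pump uses ATP to move sodium out of the cell and potassium in. A catalytic alpha subunit works together with a beta subunit, which carries the pump to the membrane, and in the heart with phospholemman, a small FXYD protein whose phosphorylation relieves its inhibition of the pump. The sodium gradient made in this way lets the sodium-calcium exchanger remove calcium after each beat, a smaller share of calcium leaves through the plasma membrane calcium pumps, and anion exchangers trade chloride for bicarbonate and so adjust the cell's pH. CaMKII, the kinase that Camk2d encodes, is known for phosphorylating calcium-handling proteins in heart muscle cells.

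Starting regions are shown for 4 genes: Atp1b1 and Fxyd1 as the pump genes with the highest levels per length, Slc8a1 as the gene with the widest spread between edited libraries among the 6 abundant ones, and Atp2b2 as the gene at the lowest level. Each stretch is the RefSeq promoter 1 in build GRCm38.p6, read 5′ to 3′ on the gene's strand, with 250 bases before the start and 50 after it. Capitals mark matches on either strand to 4 motifs. The motif AGATAA is one form of the site that GATA factors bind. The GC box was searched as CCGCCC, which is known for binding Sp1. For the TATA box the letters TATAAA were searched, and a looser form of the same box was searched as TATATA. The windows lie at chr1:164458306-164458605 for Atp1b1, chr7:31054804-31055103 for Fxyd1, chr17:81738338-81738637 for Slc8a1 and chr6:114042031-114042330 for Atp2b2, all on the minus strand.
Atp1b1: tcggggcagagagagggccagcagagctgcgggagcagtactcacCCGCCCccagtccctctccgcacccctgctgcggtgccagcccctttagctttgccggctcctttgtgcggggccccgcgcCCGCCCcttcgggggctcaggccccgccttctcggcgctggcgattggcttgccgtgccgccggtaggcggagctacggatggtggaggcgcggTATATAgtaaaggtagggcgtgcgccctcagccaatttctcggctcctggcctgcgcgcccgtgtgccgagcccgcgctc
Fxyd1: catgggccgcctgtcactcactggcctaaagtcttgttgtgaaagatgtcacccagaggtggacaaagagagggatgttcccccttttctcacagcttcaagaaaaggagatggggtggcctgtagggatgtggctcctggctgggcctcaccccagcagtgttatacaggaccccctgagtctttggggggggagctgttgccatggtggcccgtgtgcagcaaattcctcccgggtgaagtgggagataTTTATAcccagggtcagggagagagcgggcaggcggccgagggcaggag
Slc8a1: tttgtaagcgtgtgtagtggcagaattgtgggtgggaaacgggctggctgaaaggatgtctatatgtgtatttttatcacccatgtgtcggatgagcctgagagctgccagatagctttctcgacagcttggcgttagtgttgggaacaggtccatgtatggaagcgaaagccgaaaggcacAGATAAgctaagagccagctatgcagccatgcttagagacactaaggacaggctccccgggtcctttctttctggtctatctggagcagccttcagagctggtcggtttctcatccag
Atp2b2: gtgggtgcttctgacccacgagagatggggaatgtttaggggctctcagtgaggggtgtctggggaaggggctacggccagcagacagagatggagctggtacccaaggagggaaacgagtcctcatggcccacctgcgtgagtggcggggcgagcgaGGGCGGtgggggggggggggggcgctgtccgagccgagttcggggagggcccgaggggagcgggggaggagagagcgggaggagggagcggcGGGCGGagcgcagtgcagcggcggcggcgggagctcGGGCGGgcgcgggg
The Slc8a1 window held 1 GATA match, 68 bases before the start, and the Fxyd1 window a TATA box match on the opposite strand, next to the start. The Atp1b1 window held GC box matches 205 and 124 bases before the start and a match to the looser TATA form 30 bases before it, and the Atp2b2 window held 3 GC box matches. Of 32851 RefSeq promoters of this length, 11.18% held the GATA motif, 35.66% the GC box, 5.67% the looser TATA form and 13.62% the TATA box. GC content was 50.7% for Slc8a1, 58.7% for Fxyd1, 71.0% for Atp1b1 and 72.7% for Atp2b2, against a median of 52.7% over all promoters. A match is only a match of letters.

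Total counts were 17062412 to 23097998 per library, and no pair of replicates agreed within sampling noise. Camk2d, the targeted gene, stood at 138, 130 and 164 CPM (counts for each 1000000 of the library, with library sizes adjusted by the TMM method) in edited libraries and at 226, 220 and 224 CPM in controls. It was lower in all edited libraries, by a log2 fold change of -0.63 (SE 0.075, adjusted p = 4.76e-04 in edgeR's quasi-likelihood test). The libraries differed in atrial muscle transcripts. Myl7, an atrial myosin light chain, was at 542, 371 and 914 CPM in edited libraries and at 6.88, 332 and 0.209 CPM in controls, so that controls 1 and 3 stood apart from the other 4 libraries. Myl4, a second atrial light chain, was at 338, 243 and 565 CPM in edited libraries and at 9.69, 282 and 4.49 CPM in controls. Of the other atrial markers listed, Nppa, Sln, Stard10 and Fgf12 were also lowest in controls 1 and 3. Bmp10, named after its values were seen, was at 0, 0 and 0.112 CPM in edited libraries and 0.0598, 102 and 0.0522 CPM in controls. Control 2 thus differed from the edited libraries in this atrial transcript. Summed ventricular muscle markers ran from 67215 to 71473 CPM in edited libraries and from 78725 to 81457 CPM in controls. Their median log2 fold change was -0.24, and edgeR called 4 of the 9 lower in edited hearts at an adjusted p under 0.05. In such bulk samples fewer cells of a type and less RNA per cell cannot be told apart.

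None of the 7 genes passed the adjusted threshold of 0.05. The count of 0 compares with 3 at an unadjusted p under 0.05 (Atp2b2, Slc4a3 and Atp2b4) in the same edgeR test, with 1 called by DESeq2 (Atp2b2, higher) and with 2 called by limma voom with quality weights (Atp2b2 higher, Slc4a3 lower). Over all 14879 tested genes edgeR called 1438, which is 9.66%, with 4.93% higher and 4.74% lower in edited hearts. Of the same 14879 genes, 3633 had an unadjusted p under 0.05 in edgeR, DESeq2 called 1269 and limma voom called 2398. The edited and control values did not overlap for 3 of the 7 genes, beside 29.3% of all tested genes. Atp2b2 is 1 of these 3. It passed the filter on low counts only through the edited libraries, so higher edited values were a condition of its being tested. Its place in each of these counts is no separate evidence of a difference. The median log2 fold change of the 7 was -0.00052, against 0.0013 for all tested genes. All 7 differed between groups by less than the test required, and their intervals, given below, differ widely in what sizes of change they leave.

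**Figure D1:**
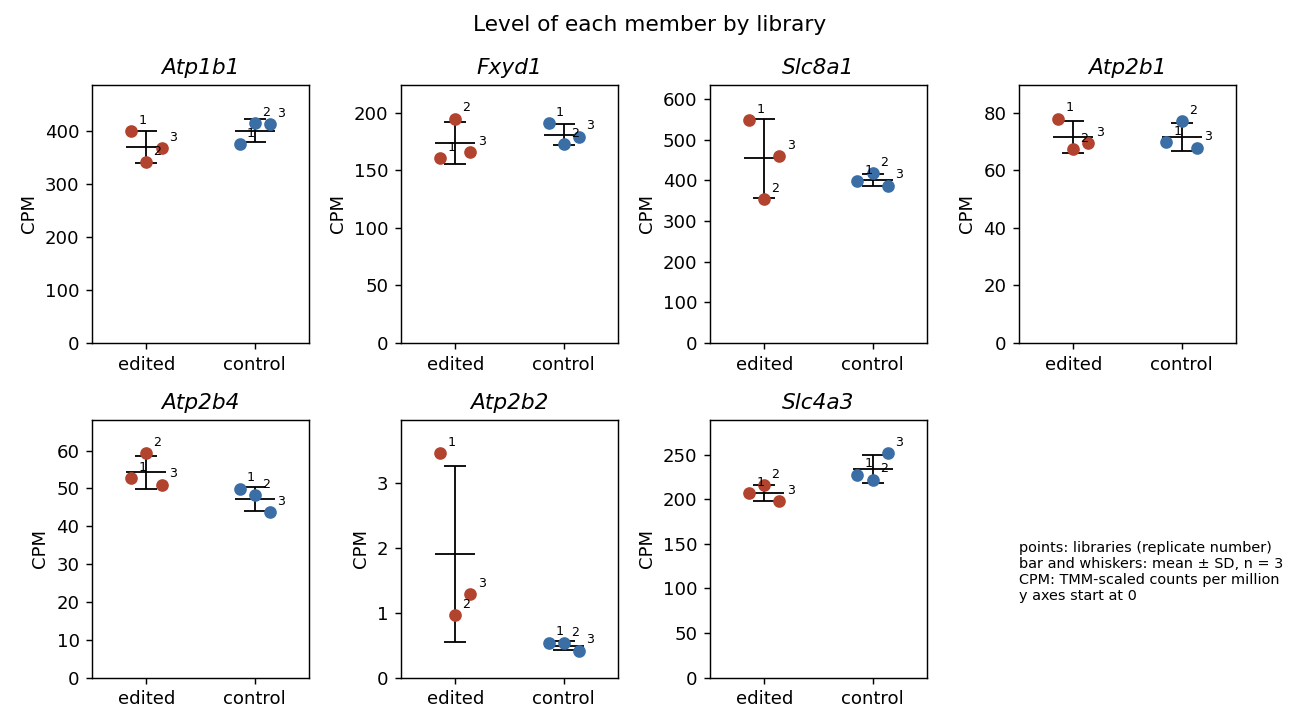
Level of each gene in TMM-scaled CPM, on y axes that start at 0, for edited (red, left) and control (blue, right) libraries. Points are libraries with their replicate number, and bars with whiskers are the mean ± SD (n = 3). The groups do not overlap for Atp2b4, Atp2b2 and Slc4a3, and Slc8a1 is spread from 354 to 550 CPM in edited libraries.

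Levels are compared between genes per kilobase of exon, using the exon length in the authors' file. The order was the same in both groups: Atp1b1, Fxyd1, Slc4a3, Slc8a1, Atp2b1, Atp2b4 and Atp2b2. Atp1b1 stood at 142.6 ± 11.5 CPM per kb in edited and 154.8 ± 8.71 in control libraries (SD, n = 3 each), and Fxyd1 at 97.0 ± 10.4 CPM per kb in edited and 101.0 ± 5.04 in control libraries. Slc4a3 reached 35.0 ± 1.501 CPM per kb in edited and 39.6 ± 2.65 in control libraries, and Slc8a1 23.6 ± 5.08 CPM per kb in edited and 20.8 ± 0.786 in control libraries. The 2 abundant calcium pump genes were close to each other: Atp2b1 was at 6.77 ± 0.535 CPM per kb in edited and 6.78 ± 0.461 in control libraries, and Atp2b4 at 6.14 ± 0.496 CPM per kb in edited and 5.35 ± 0.358 in control libraries. Their single libraries overlapped in the edited group and did not in the control group, and no other neighbours in the order overlapped in either group. Atp2b2 was far below the rest, at 0.185 ± 0.132 CPM per kb in edited and 0.048 ± 0.0065 in control libraries.

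**Figure D2:**
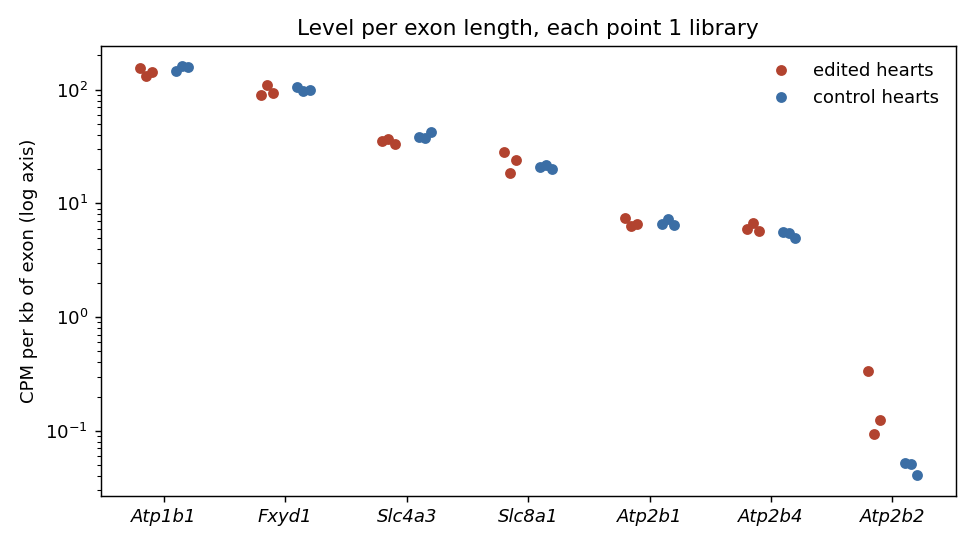
Level per kilobase of exon on a log axis, in CPM per kb, 1 point per library, edited (red) left of control (blue) for each gene. The order of the 7 genes is the same in both groups, with Atp1b1 highest and Atp2b2 lowest.

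Atp1b1 encodes the beta-1 subunit that brings the pump to the membrane. It lies in mm10 at chr1:164437099-164458355 on the minus strand, is protein-coding, and shares 202 exon bases (7.8%) with Nme7 on the opposite strand, so that counts without strand information could mix both genes there. Its levels were 400, 341 and 367 CPM in edited libraries and 375, 415 and 413 CPM in controls. The groups overlap, because edited 1 lies above control 1. The log2 fold change was -0.12 (SE 0.065, interval at 2 SE from -0.25 to 0.01, adjusted p = 0.293 in edgeR). As a share of the beta subunit genes, per length, Atp1b1 held 86.4 ± 2.11% in edited and 86.5 ± 0.83% in control libraries, a difference of -0.05 percentage points (exact permutation test, two-sided p = 1, adjusted over the 5 shares and ratios 1).

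Fxyd1 encodes phospholemman, the regulator that restrains the pump until it is phosphorylated. The gene lies at chr7:31051678-31055874 on the minus strand. It stood at 161, 195 and 166 CPM in edited libraries and at 191, 173 and 179 CPM in controls, with edited 2 the highest of all 6. The groups overlap, and the log2 fold change was -0.06 (SE 0.072, interval from -0.20 to 0.08, adjusted p = 0.677 in edgeR). Fxyd1 made up 71.8 ± 1.43% of the FXYD family's RNA per length in edited and 73.9 ± 1.06% in control libraries (SD, n = 3 each; exact permutation test, two-sided p = 0.2, adjusted 0.333). With 3 libraries against 3 the smallest p this test can give is 0.1. Fxyd5, another FXYD regulator, was at 12.1 ± 0.84 CPM in edited and 10.1 ± 0.88 CPM in control libraries (log2 fold change 0.27, adjusted p = 0.120).

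Slc8a1 encodes NCX1, the main sodium-calcium exchanger of heart muscle. The gene spans chr17:81373105-81738387 on the minus strand, with 19283 exon bases. Its levels were 550, 354 and 460 CPM in edited libraries and 399, 417 and 387 CPM in controls. Edited 1 and 3 lay above every control and edited 2 below every control. The log2 fold change was 0.18 (SE 0.166, interval from -0.15 to 0.51, adjusted p = 0.588 in edgeR). Without edited replicate 2 it was 0.33 with an adjusted p of 0.00962, and without edited replicate 1 it was 0.02, so that single edited libraries decide the value.

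The edited libraries varied in Slc8a1 far more than the controls did. The coefficient of variation was 21.6% in edited and 3.78% in control libraries, and the SD of log2 CPM was 0.32 in edited and 0.054 in control libraries. Among 9241 genes with a mean of at least 10 CPM, 98.9% had a smaller SD over the edited libraries, and 37.2% over the controls. The 3 edited libraries deviated from their group mean by 0.30, -0.34 and 0.04 on the log2 scale. Genes with over 10 kb of exon (600 genes) had median deviations of 0.051, -0.053 and 0.0092 in the same libraries, which is the same order at a smaller size. The part of transcript length in the value of Slc8a1 was not tested. Set against the summed ventricular markers, the log2 ratio of Slc8a1 was -7.27 ± 0.30 in edited and -7.64 ± 0.079 in control libraries (SD, n = 3 each), a difference of 0.37 (exact permutation test, two-sided p = 0.2, adjusted 0.333).

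**Figure D3:**
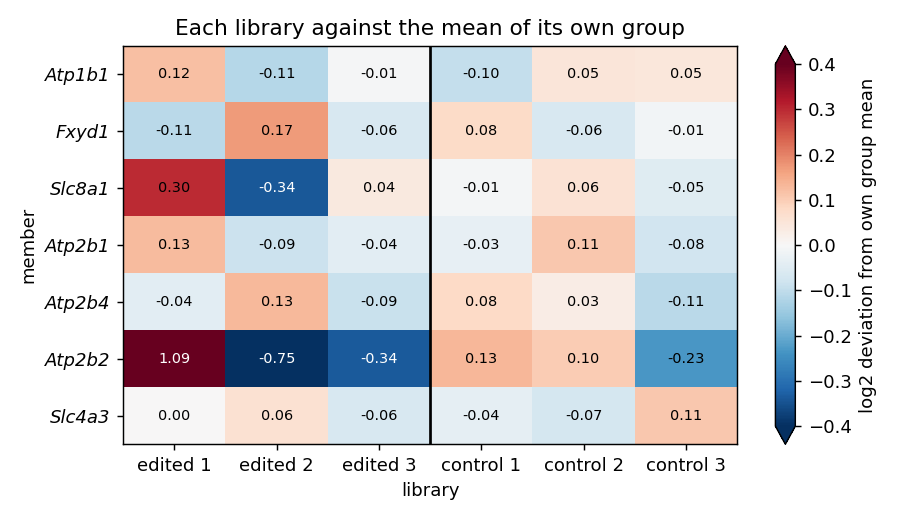
Log2 deviation of each library from the mean of its own group for the 7 genes, edited libraries left and controls right of the line. The colour scale ends at ±0.4, and the printed values show that Slc8a1 is 0.30 above and 0.34 below its mean in edited 1 and edited 2, and Atp2b2 1.09 above in edited 1.

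Of the other exchanger genes, 5 of 7 were tested and edgeR called 1, higher. Slc24a2 encodes NCKX2, a sodium-calcium exchanger that also moves potassium. It was at 8.57, 6.90 and 10.2 CPM in edited libraries and at 2.27, 2.63 and 2.51 CPM in controls. All edited libraries lay well above all controls, and the log2 fold change was 1.79 (SE 0.17, adjusted p = 7.3e-05 in edgeR). Slc8a2, the NCX2 exchanger, stood at 6.40, 6.84 and 3.29 CPM in edited libraries and at 2.69, 3.21 and 1.62 CPM in controls (log2 fold change 1.14, adjusted p = 0.0705 in edgeR). It was called higher under 4 of 16 alternatives. These were DESeq2 (adjusted p = 0.00380) and edgeR without edited 3 (0.00623), with no filter (0.0178) or with replicate number as a block (0.00229). The other 12 did not call Slc8a2, among them limma voom with quality weights (0.148) and edgeR without edited 1 (0.189). Slc24a3, the NCKX3 exchanger, had a log2 fold change of 0.29 with overlapping groups (adjusted p = 0.530).

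Atp2b1 encodes PMCA1, the widely expressed plasma membrane calcium pump, at chr10:98914359-99026143 on the plus strand. It stood at 78.0, 67.3 and 69.5 CPM in edited libraries and at 70.0, 77.2 and 67.9 CPM in controls. The groups overlap throughout. A log2 fold change of -0.00052 (SE 0.070, interval from -0.14 to 0.14, adjusted p = 0.998 in edgeR) was estimated, and its sign turned with the setting.

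Atp2b4 encodes PMCA4, which in heart muscle is known more for signalling at the membrane than for bulk calcium removal. The gene lies at chr1:133702674-133801038 on the minus strand. Its levels were 52.6, 59.3 and 51.0 CPM in edited libraries and 49.9, 48.2 and 43.8 CPM in controls. Every edited library lay above every control, the closest pair being edited 3 and control 1. This gave a log2 fold change of 0.20 (SE 0.071, interval from 0.06 to 0.34), which did not pass over all genes (adjusted p = 0.1001 in edgeR's quasi-likelihood test). Per length, Atp2b1 held 51.4 ± 2.92% of the 4 calcium pump genes' RNA in edited and 55.6 ± 1.73% in control libraries (exact permutation test, two-sided p = 0.2, adjusted 0.333). Atp2b4 held 46.6 ± 3.71% in edited and 43.9 ± 1.70% in control libraries (exact permutation test, two-sided p = 0.3, adjusted 0.375).

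Atp2b2 encodes PMCA2, a pump known from neurons and hair cells of the ear, and lies at chr6:113743842-114042613 on the minus strand. It had 81, 17 and 23 counts in edited libraries and 9, 10 and 8 in controls, or 3.45, 0.961 and 1.28 CPM in edited libraries and 0.538, 0.527 and 0.418 CPM in controls. All edited libraries lay above all controls, and edited 1 was far above the other two. The log2 fold change was 1.98 (SE 0.534, interval from 0.91 to 3.05) and the adjusted p was 0.053 in edgeR. Atp2b2 passed the filter of 0.543 CPM in 3 libraries through the 3 edited libraries and through none of the controls, so a difference in this direction was a condition of its being tested. Leaving out edited 1 gave a log2 fold change of 1.18. Control 2, which holds atrial transcripts, was at 0.527 CPM of Atp2b2, between control 1 and control 3, which hold little. These control values rest on 8 to 10 counts each, and the part of atrial RNA in the value of Atp2b2 was not tested. Some neuronal markers had their higher values in the edited libraries. Tubb3, a neuronal tubulin, was at 9.68, 1.98 and 10.7 CPM in edited libraries and at 1.26, 1.37 and 0.731 CPM in controls. Snap25, a synaptic protein, was at 4.95, 0.226 and 4.41 CPM in edited libraries and at 0.120, 0.158 and 0 CPM in controls. Tubb3 and Snap25 were named after their values were seen, edgeR did not call Tubb3 (adjusted p = 0.136), and Snap25 was not tested. Both, like Atp2b2, were lowest in edited 2 among the edited libraries, and neither group of values overlaps the other. In edited 3, however, Atp2b2 was near its value in edited 2, and Tubb3 and Snap25 were far above theirs. S100b, from the same marker list, was at 0.597, 1.24 and 0.838 CPM in edited libraries, highest in edited 2. Over the list of 8 nerve and Schwann cell markers the summed level ran from 21.0 to 44.9 CPM in edited and from 21.4 to 23.5 CPM in control libraries. Of 5 tested, edgeR called 1 lower (Dbh) and 0 higher. The part of nerve RNA in the value of Atp2b2 was not tested.

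Of the 3 other genes on the calcium pump list, 1 was called. Atp2b3, the PMCA3 pump, was at 0.640, 0.622 and 0.670 CPM in edited libraries and at 0.179, 0.158 and 0.157 CPM in controls. These levels rest on 15, 11 and 12 counts in edited libraries and 3 in each control, and Atp2b3, like Atp2b2, could be tested only through the edited libraries (log2 fold change 1.93, adjusted p = 0.0109 in edgeR). DESeq2 did not call it (adjusted p = 0.1002), nor did edgeR without control 3 (0.0749). Bsg and Nptn, the basigin and neuroplastin proteins that accompany these pumps in the membrane, were not called by edgeR, with log2 fold changes of -0.11 and -0.06. Limma voom with quality weights called Bsg lower (log2 fold change -0.16, adjusted p = 0.0336).

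Slc4a3 encodes AE3, an anion exchanger of heart muscle that takes up chloride and releases bicarbonate, at chr1:75545914-75559431 on the plus strand. It stood at 207, 216 and 198 CPM in edited libraries and at 228, 222 and 252 CPM in controls. Every edited library lay below every control, with edited 2 and control 2 the closest pair. The log2 fold change was -0.18 (SE 0.060, interval from -0.30 to -0.06), which did not pass over all genes (adjusted p = 0.0805 in edgeR's quasi-likelihood test). Set against the summed ventricular markers, its log2 ratio was -8.39 ± 0.055 in edited and -8.42 ± 0.072 in control libraries, a difference of 0.03 (exact permutation test, two-sided p = 0.5, not adjusted). This ratio was planned for Slc8a1 only. The marker sum was lower in edited libraries, which raises the ratio of every gene there. The same difference was 0.09 for Atp1b1, 0.15 for Fxyd1, 0.37 for Slc8a1, 0.21 for Atp2b1, 0.41 for Atp2b4 and 1.93 for Atp2b2.

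Of the 10 calls among the other pathway genes, 5 were of acid-base transporters and their partners. Of 23 on the list 19 were tested, 4 were called lower and 1 was called higher in edited hearts, with a median log2 fold change of -0.06. Tesc, a calcium-binding protein that partners a sodium-proton exchanger, was at 29.9, 28.6 and 30.8 CPM in edited libraries and at 41.8, 39.7 and 43.9 CPM in controls. Its groups are clear of each other (log2 fold change -0.49, SE 0.066, adjusted p = 7.63e-04 in edgeR). Slc26a6, an anion exchanger, averaged 16.9 ± 1.03 CPM in edited and 22.7 ± 1.01 CPM in control libraries (log2 fold change -0.43, adjusted p = 0.00425). Slc16a1, which carries lactate with a proton, averaged 212 ± 21.8 CPM in edited and 267 ± 12.8 CPM in control libraries (log2 fold change -0.33, adjusted p = 0.0106), and Car14, a membrane carbonic anhydrase, 113 ± 6.10 CPM in edited and 130 ± 6.68 CPM in control libraries (log2 fold change -0.21, adjusted p = 0.0348). Both were named after their values were seen. Slc16a1 missed the threshold without edited 3 (adjusted p = 0.0598) or control 3 (0.0547), and Car14 without any 1 library other than edited 2 (0.0530 to 0.205). The gene that rose was Slc9a3, the NHE3 exchanger, at 1.96, 1.47 and 1.84 CPM in edited libraries and 0.837, 0.632 and 0.574 CPM in controls (log2 fold change 1.38, adjusted p = 0.00645, or 0.0628 without control 3).

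None of the 5 tested cation-chloride cotransporter genes was called by edgeR, with 1 at an unadjusted p under 0.05. Slc12a5, known from neurons, had a log2 fold change of 0.72 (adjusted p = 0.152), which was 0.92 without edited 2 (0.0415) and 0.26 without edited 1 (0.557), and Slc12a7 had 0.05. Among anchoring and regulatory proteins 12 of 13 were tested, and edgeR called 1 lower and 1 higher. Ppp1r1a, an inhibitor of protein phosphatase 1, was at 9.64, 9.95 and 14.02 CPM in edited libraries and at 5.80, 4.21 and 4.75 CPM in controls (log2 fold change 1.19, adjusted p = 0.00145). Ank2, which encodes ankyrin-B, the anchor of the sodium pump and of NCX1, averaged 116 ± 11.9 CPM in edited and 138 ± 5.13 CPM in control libraries (log2 fold change -0.25, adjusted p = 0.0386), and missed the threshold without any 1 library other than edited 1 (0.0594 to 0.133). Cav3, the muscle caveolin, was not called (log2 fold change -0.12).

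Of the 65 pathway genes outside the 7, 52 were tested. EdgeR called 6 lower and 4 higher in edited hearts, beside 4.74% lower and 4.93% higher over all genes. Their median log2 fold change was -0.0067. Without edited 3 the lower calls were 3, and without control 3 they were 3 lower and 2 higher. With Myl7 as a covariate 1 was lower and 1 higher (Slc24a2), and with control 2 as the only control 0 were lower and 1 was higher. The summed ventricular markers were lower in edited libraries, and of the 6 mesothelial markers 4 were called higher and 1 lower. The part of tissue makeup in the calls of pathway genes was not tested.

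**Figure D4:**
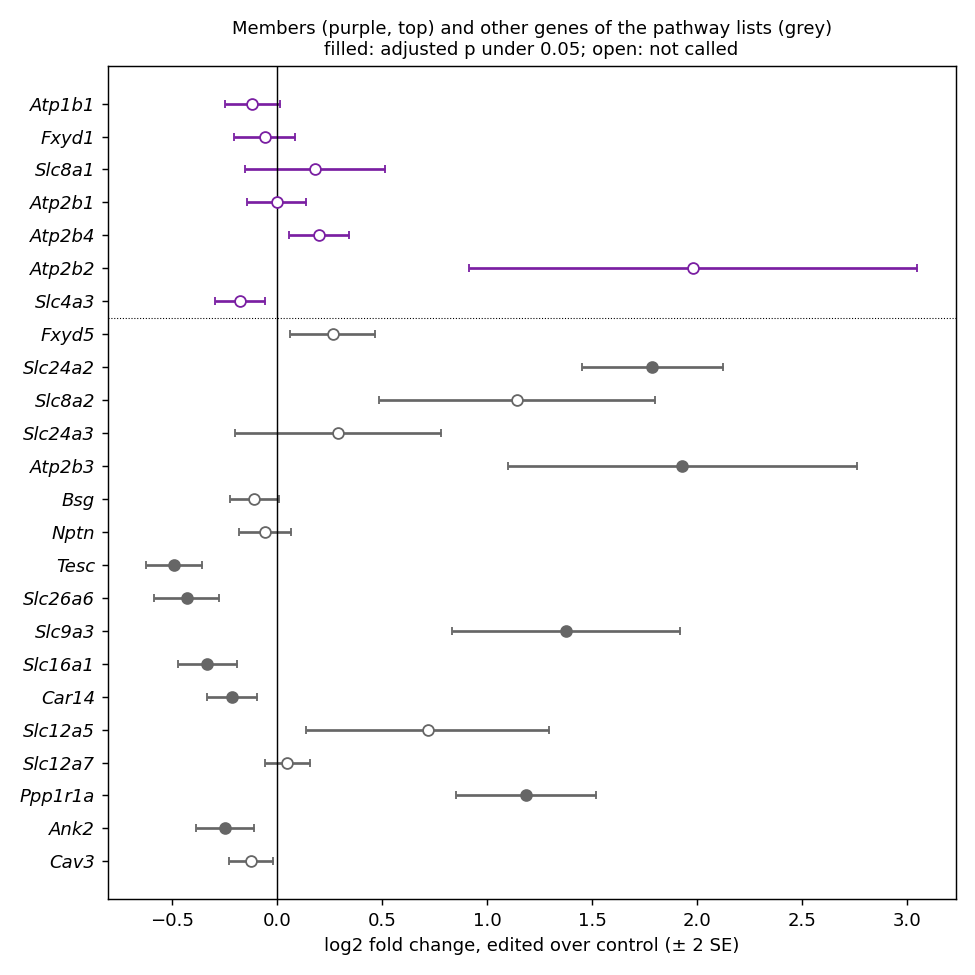
Log2 fold change, edited over control, with whiskers of ± 2 SE, for the 7 genes (purple, above the dotted line) and the other named pathway genes (grey). Filled points passed the adjusted threshold of 0.05; none of the 7 is filled, and Slc24a2 and Tesc are among those that are.

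How far each of the 7 depends on single libraries is shown by leaving libraries out. Edited 2 mattered most: without it Slc8a1 (0.00962), Atp2b2 (0.00469) and Slc4a3 (0.0418) passed the adjusted threshold in edgeR. Without edited 3, Atp2b2 passed at 0.049. Leaving out any 1 control called none of the 7.

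**Figure D5:**
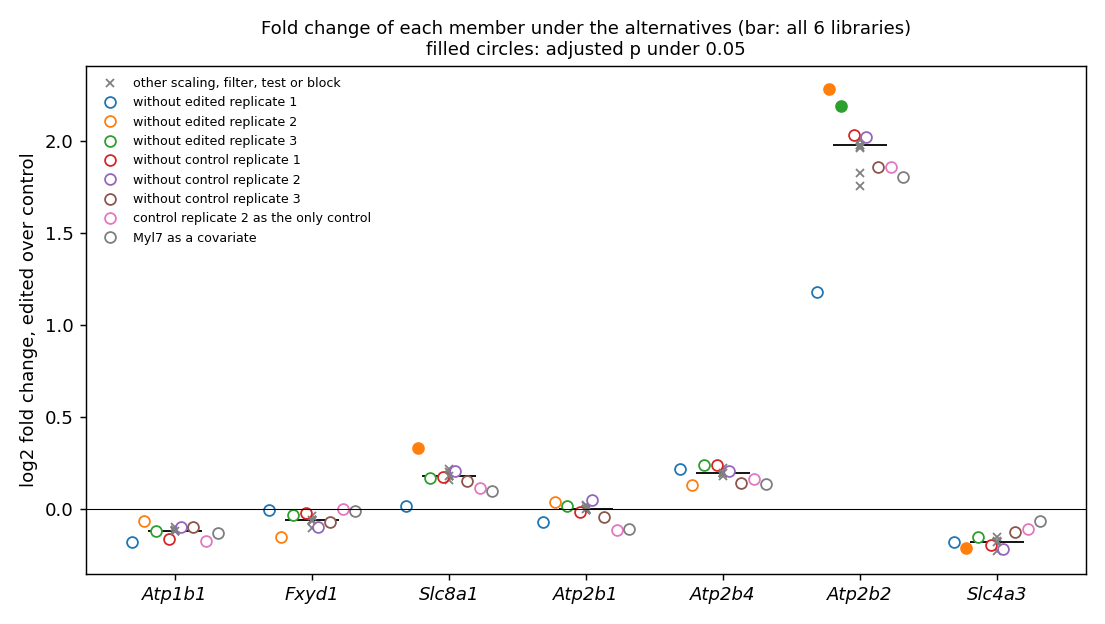
Log2 fold change of each gene, edited over control, under the alternatives; the bar is the value from all 6 libraries. Filled circles have an adjusted p under 0.05 among the fits that leave out libraries or add Myl7, and crosses, for other settings, show the value alone. Slc8a1 ranges from 0.02 without edited 1 to 0.33 without edited 2.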

How the data were processed

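The authors deposited raw read counts per gene, not normalized, in 2 identical columns per library, of which the first was used. The tools listed in the submitters' processing notes are STAR, featureCounts, cutadapt and FastQC, with build mm10; neither versions nor the strand setting are given in the labels. From these counts, edgeR 4.0.16 (R 4.3.3) gave TMM scaling, filterByExpr, a robust quasi-likelihood test with group as the term, and Benjamini-Hochberg adjustment over 14879 genes. An SE is the log2 fold change over the square root of F. Shares were compared by exact permutation over 20 arrangements. DESeq2 1.42.0 and limma 3.58.1 were alternatives. The steps were tested on simulated data. Gene types come from GENCODE M21. Members and lists were chosen with earlier results of these data known. Named genes are the members, Camk2d, Myl7, Myl4 and, from each pathway list, up to 3 other genes with the smallest p; exceptions are stated, and a few genes picked in this way are left out of the text.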

Additional observations from a re-analysis of the deposited data

How the results depend on the processing

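For 16 alternatives, counts that moved by over 1.5 times follow, with smaller moves of the pathway counts after them. Members lower numbered 1 with no filter and with voom, and 0 to 1 when a library was left out; members higher numbered 2 with no filter, 1 with DESeq2's Wald test, voom or the replicate block, and 0 to 2 without a library. Pathway genes lower numbered 0 with control 2 as the only control, 1 with Myl7 as a covariate, and 3 to 6 without a library; those higher numbered 8 with no filter, 1 with control 2 only, 1 with Myl7, and 2 to 6 without a library. Pathway genes lower also numbered 9 with voom, 5 with the block and 4 with upper-quartile scaling, and those higher 5 with DESeq2's Wald test and the block and 3 with the 1 CPM filter. All calls numbered 2239 with no filter, 2398 with voom, 82 with control 2 only, 128 with Myl7, and 386 (without control 3) to 1661 without a library, with 743 without edited 3 and 781 without control 1. Upper-quartile scaling gave 531 lower and 849 higher. Replicate numbers did not pair the samples: same-number correlations of deviations were 0.0039, -0.11 and -0.081, and 0 of 6 libraries correlated best with their own number. The replicate block called Atp2b2 (adjusted p = 0.0109) and Slc8a2 (0.00229) and lost Ank2 (0.0537).

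The log2 fold change of Atp2b1 turned positive with upper-quartile scaling (0.024), no filter (0.00041), a 1 CPM filter (0.0034), voom (0.016), and without edited 2 (0.042), edited 3 (0.019) or control 2 (0.053), in a range of -0.0685 to 0.0529 without a library. That of Fxyd1 was 0.0010 with control 2 only, and the Atp1b1 share differed by 1.147, 0.144 and 0.231 points without edited 2, control 2 and control 3 (range -0.846 to 1.147). Without filter, Atp2b4 (adjusted p = 0.0398) and Slc4a3 (0.0494) were called; a 1 CPM filter drops Atp2b2. Camk2d missed with control 2 only (adjusted p = 0.0964). Slc24a2 was called under all 16. The causes were not tested.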
